A study of Prunus persica with 25 samples.

Results

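Winter changes of gene expression were compared between the vegetative and the flower buds of peach (Prunus persica, cultivar Fantasia). The question was whether a gene changed over winter by a different amount in the 2 bud types, and which bud type carried the difference. In an axillary triplet of peach a vegetative bud stands between flower buds, and only buds of such triplets were taken, from trees of a farm plot, with the outer scales removed. The libraries are 10 of the 25 in the series, namely 3 of vegetative buds before any chilling (Pre0CU, September), 3 of vegetative buds after chilling (Post770CU, December), 2 of flower buds at Pre0CU and 2 of flower buds at Post770CU, all from the same winter. A chilling unit (CU) counts an hour at an effective cold temperature, and the headers of the count tables give 930 CU for the collection that the labels call Post770CU. The labels give total RNA for vegetative Pre0CU and polyA RNA for vegetative Post770CU and for all 4 flower bud libraries, although the same stranded mRNA kit is named for every library. The type of RNA and the time of collection can thus not be told apart within vegetative buds, while in flower buds the label was the same at both times. No agent or genotype differed between the groups.

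The winter state of buds is classically described as dormancy, in which growth is held back until enough cold has been received. From sections of vegetative buds, the study reports that these went on developing through the winter. A flower bud encloses a determinate meristem that goes on to form the floral organs through the cold season, and a vegetative bud encloses an indeterminate shoot meristem with leaf primordia. The balance of abscisic acid (ABA), a hormone of dormancy and water stress, and of gibberellins (GA), hormones of growth, is known to bear on the depth of dormancy, as are the MADS-box genes of the SVP clade. Jasmonates (JA) are hormones of wounding and defence. In bulk samples, fewer cells of a type and less RNA per cell cannot be told apart.

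The interaction of bud type and winter was the change in vegetative buds (Post770CU minus Pre0CU, on the log2 scale of CPM, read counts scaled to library size) minus the change in flower buds. It was fitted in a single model of all 10 libraries with edgeR's quasi-likelihood test. A positive value means that the change was more upward in vegetative buds, and a negative value that it was more upward in flower buds. A gene was called at a Benjamini-Hochberg FDR below 0.05 over all genes tested and a fold above 1.4. Of 26873 genes, 26790 passed the filter on low counts. The interaction was called for 6594 genes (24.6%), of which 3049 were positive (11.4%) and 3545 negative (13.2%). The median log2 interaction over all genes tested was 0.00. Of the 495 called genes with an interaction above 4-fold, 433 were negative. With library totals alone in place of the TMM scaling, the median moved to -0.11 and the positive share of the calls from 46.2% to 32.3%.

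The library totals ran from 44894673 to 71239880 counts. The chi-square per gene of the 8 pairs of replicates was 2.88 to 13.3, so no pair was a copy. In vegetative buds at Post770CU, library 1 stood apart from the others, with 11.0 and 12.3 against 2.88 between libraries 2 and 3, and 6383 genes were called in the interaction without it. The flower pairs were about as far apart, with 13.3 at Pre0CU and 9.67 at Post770CU. Labels were checked against markers of the organs. The flower meristem identity gene LFY (PRUPE_5G140700) was at 56.2 and 61.3 CPM and then 80.04 and 84.0 CPM in flower buds, and at 2.97, 3.86 and 3.07 CPM and then 5.10, 4.98 and 5.13 CPM in vegetative buds, with no call in the interaction (log2 0.13, adjusted p = 0.432). The summed level of 4 flower markers was 18.8 to 21.0 CPM and then 12.6 to 15.0 CPM in vegetative buds, against 110.3 to 117 CPM and then 143 to 150.0 CPM in flower buds. Of these markers, AGL20B (PRUPE_5G149400) fell in flower buds from 4.78 and 5.29 CPM to 1.38 and 1.42 CPM. In vegetative buds at Post770CU it was at 1.24 to 1.86 CPM, so it does not tell the organs apart there. LFY, AGL79 and SEP1 were higher in flower buds at both times. No marker was at 0 in any group. The 4 markers set for vegetative buds, STM, PRS, CLAVATA3/ESR and KANADI1, were present at similar levels in both organs at Pre0CU. Their sum was 98.3 to 107 CPM in vegetative and 87.5 to 96.6 CPM in flower buds. At Post770CU it was 41.9 to 44.3 CPM in vegetative and 63.8 to 68.3 CPM in flower buds, the reverse of what the names of the organs would give, so these markers do not tell the organs apart. KANADI1 stayed below 2 CPM in every library. Vegetative buds of 200CU and 475CU of the same winter, also labelled total RNA, are given below as a description of the time between. Of the 3 libraries at 475CU, 2 had LFY at 32.4 and 30.8 CPM and the other at 4.10 CPM, and at 200CU LFY was at 3.83, 7.65 and 15.7 CPM.

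Flower buds carried more of the differences than vegetative buds. In flower buds 5842 genes rose over winter (21.8%) and 6091 fell (22.7%), and in vegetative buds 4283 rose (16.0%) and 5904 fell (22.0%). Each gene with a called interaction was assigned to the bud type in which its own change was called. The change was called only in flower buds for 2350 genes (35.6% of the 6594) and only in vegetative buds for 1182 (17.9%). Both changed in the same direction with the larger change in flower buds for 1475 genes and with the larger change in vegetative buds for 593. Both changed in opposite directions for 433 genes (6.57%), and neither change was called for 561. A change called in one bud type alone means that the other missed the call, not that it was absent there, while the interaction itself tests the difference. By the size of the change alone, 66.8% of the genes with a called interaction changed more in flower buds, beside 60% of all genes tested.

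**Figure D1:**
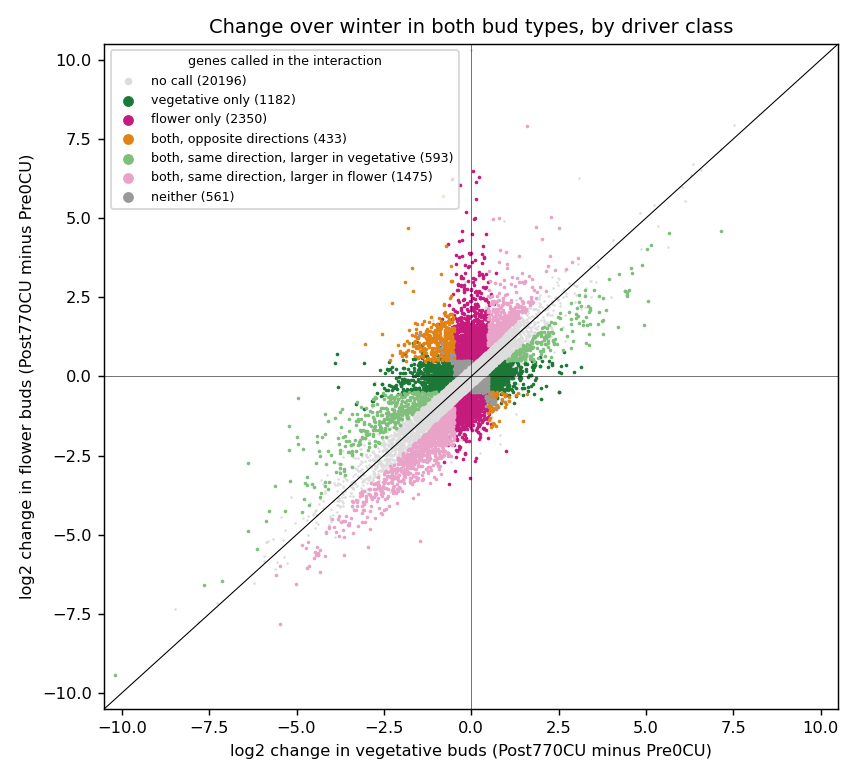
Log2 change over winter of each gene in vegetative buds (x axis) and flower buds (y axis), coloured by the bud type in which the change was called. Genes on the diagonal changed alike, and the 2350 genes called only in flower buds form the upright band at 0 on the x axis. Outside the axes lie 3 genes, none of them called.

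The directions within these classes were uneven. Among the genes that changed in flower buds alone, 1427 rose and 923 fell. Among those that changed in vegetative buds alone, 658 fell and 524 rose. Opposite changes were nearly all of a single kind: 370 of 433 genes fell in vegetative buds and rose in flower buds, with a median log2 change of -0.87 in the former and 1.05 in the latter, and 63 did the reverse. Where both bud types changed in the same direction with the larger change in flower buds, 1003 genes fell and 472 rose. Where the change was larger in vegetative buds, 394 fell and 199 rose.

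**Figure D2:**
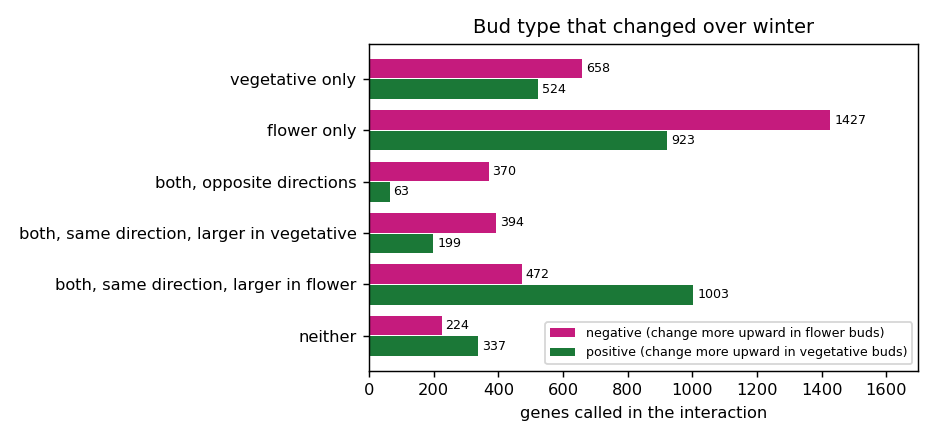
Number of genes with a called interaction (x axis) in each driver class, split by the sign of the interaction. Flower buds alone carried 1427 negative and 923 positive interactions, and 370 of the 433 genes with opposite changes had a negative interaction.

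The bud types were much more alike before chilling than after. At Pre0CU 2112 genes differed between vegetative and flower buds (7.88%), and at Post770CU 7578 did (28.3%). The RNA label differed between the bud types at Pre0CU, total RNA against polyA RNA, and was polyA RNA for both at Post770CU. What the label adds to either count was not tested. Of the 6594 genes with a called interaction, 4524 (68.6%) differed at Post770CU alone, 458 at Pre0CU alone and 990 at neither time. The same bud type was higher at both times for 407, and the other bud type had become the higher for 215.

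Names were at hand for only part of these genes. The count tables hold identifiers without names, and names or annotations from the study were found for 1649 tested genes, 744 of which had a called interaction. Most of these names come from a list of genes of one co-expression module of vegetative buds, which the study built partly on these same vegetative libraries and which holds mostly genes that fell there. Of the 1561 annotated genes of that list, 1164 fell in vegetative buds and 28 rose, so the vegetative direction of the groups below is no independent evidence. In flower buds 1047 of them fell and 128 rose, which is to be set beside the falls of the groups there. The hormone and meristem lists used below hold genes that the study had found to change in data that include these libraries, so their changes over winter in either bud type are no independent evidence. Their called shares are to be set beside the 24.6% of all genes tested. Of the module's members, 351 had a positive and 351 a negative interaction, which at 45.0% is the share to set beside the counts of its groups.

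Most genes of dividing cells rose over winter in flower buds and fell or had no called change in vegetative buds. Of 18 genes that the annotation ties to mitosis and cytokinesis, 14 had a negative interaction and none a positive one, with a median log2 interaction of -1.40 against 0.00 for all genes. In flower buds 14 of the 18 rose and 3 fell, and in vegetative buds 11 fell and 1 rose. One of the 4 without a call is a fatty acid elongase caught by the wording of its annotation. TPX2 (PRUPE_3G140300), an assembly factor of the mitotic spindle, had 13.6, 12.7 and 12.7 CPM in vegetative buds at Pre0CU and 4.97, 5.26 and 4.46 CPM at Post770CU, against 18.0 and 18.7 CPM and then 46.1 and 44.9 CPM in flower buds. No groups overlapped, and the small gap at Pre0CU became a wide one as TPX2 fell in vegetative buds and rose 2.48-fold in flower buds. Its log2 interaction was -2.73 (standard error 0.11, adjusted p = 2.65e-09). MAD2 (PRUPE_1G235600), a protein of the spindle checkpoint, had 8.38, 7.85 and 7.88 CPM in vegetative buds at Pre0CU and 2.75, 3.28 and 3.93 CPM at Post770CU, against 11.1 and 13.2 CPM and then 28.1 and 25.8 CPM in flower buds. Neither bud type overlapped between the times, and vegetative buds fell while flower buds rose, with a log2 interaction of -2.41 (standard error 0.18, adjusted p = 3.23e-07). A kinesin-10 motor gene (PRUPE_1G042100) repeated the pattern at -2.40 (standard error 0.13, adjusted p = 2.01e-08). Of the 14 called genes, 7 fell in vegetative and rose in flower buds, and 6 of the other 7 rose in flower buds alone. The exception was the kinase gene TIO, which fell in vegetative buds alone.

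**Figure D3:**
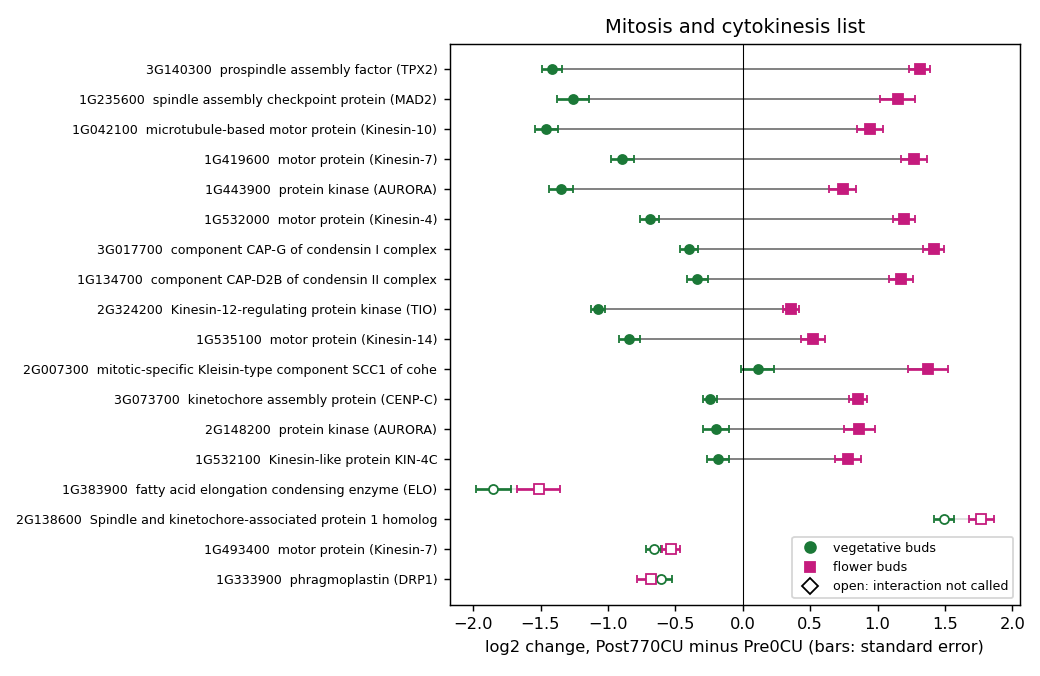
Log2 change from Pre0CU to Post770CU (x axis, with standard error) of the 18 genes of the mitosis and cytokinesis list in vegetative buds (circles) and flower buds (squares). In the 14 genes with a called interaction, shown filled, the flower bud value lies to the right of the vegetative one.

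Genes of DNA synthesis and some histone genes had negative interactions too. A histone H4 gene (PRUPE_2G232000) was at 32.4, 30.2 and 33.9 CPM and then 9.75, 11.1 and 11.9 CPM in vegetative buds, and at 28.7 and 30.7 CPM and then 69.5 and 68.4 CPM in flower buds. Levels that overlapped before chilling, from 28.7 to 33.9 CPM over both bud types, were thus far apart after it, with a log2 interaction of -2.77 (standard error 0.11, adjusted p = 2.51e-09). Histone H4 genes are near copies of each other, so reads may be shared between them. The centromeric histone H3 gene (PRUPE_2G185400) had a log2 interaction of -1.48 (standard error 0.11, adjusted p = 2.45e-07) and changed in opposite directions. It is on the core histone list, whose other member, a reader of histone methylation, had no call. All 3 genes of the DNA replication list, among them subunits of DNA polymerase alpha (PRUPE_1G223400, PRUPE_1G233700), had a negative interaction of -0.87 to -1.29, and each rose in flower buds without a call in vegetative buds. In the vegetative buds between, the mitosis list stood at 352 to 372 CPM in sum at 200CU and 312 to 385 CPM at 475CU, below the 390.0 to 406 CPM of Pre0CU, and at 243 to 263 CPM at Post770CU. The typical gene of the list did not share the lower sum, since the median log2 difference from Pre0CU was 0.10 at 200CU, 0.02 at 475CU and -0.68 at Post770CU. The flower bud sum was 507 to 516 CPM at Pre0CU and 754 to 756 CPM at Post770CU. The lower median in vegetative buds thus appeared between 475CU and Post770CU, where the RNA label also changes, and the part of the label was not tested. The 475CU group includes the libraries with LFY at 32.4 and 30.8 CPM. This timing and the fit below rest partly on those libraries, and their part was not tested. With 475CU in place of Post770CU for vegetative buds, 14 of the 18 genes had a negative interaction and 1 a positive one. That fit sets unlike times beside each other and uses the same change in flower buds, so it is no independent evidence.

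Regulators of meristems and organs also parted, in different ways. STM (PRUPE_4G015200), the homeobox gene that keeps the shoot meristem undetermined, had 33.0, 36.8 and 30.1 CPM in vegetative buds at Pre0CU and 15.7, 17.4 and 16.2 CPM at Post770CU, against 34.3 and 27.8 CPM and then 48.8 and 42.5 CPM in flower buds. Vegetative libraries did not overlap between the times, and neither did flower libraries. STM fell in vegetative buds by 1.02 log2 units and rose 1.47-fold in flower buds, and the log2 interaction was -1.58 (standard error 0.14, adjusted p = 1.95e-06). Libraries labelled total RNA already had lower levels than Pre0CU, with 4.97, 5.36 and 5.70 CPM at 200CU and 17.2, 16.5 and 13.1 CPM at 475CU. WOX13 (PRUPE_7G183300), of the WUSCHEL-related homeobox family, fell from 11.1, 14.0 and 12.3 CPM to 5.02, 5.40 and 5.28 CPM in vegetative buds and had 9.39 and 8.07 CPM and 9.73 and 11.2 CPM in flower buds, so that vegetative buds alone carried its interaction of -1.51 (standard error 0.17, adjusted p = 1.08e-05). A gene listed as WOX (PRUPE_1G432100) fell in both, more so in vegetative buds (log2 -2.79 against -1.36), from a higher level at Pre0CU. The gap between bud types was called at Pre0CU and no longer at Post770CU. A gene of the YABBY family matching FIL/YAB1 (PRUPE_2G140400), which sets the abaxial side of lateral organs in Arabidopsis, rose in both bud types and more in flower buds. It went from 11.7 and 13.4 CPM to 53.2 and 57.1 CPM there and from 12.4, 15.2 and 13.6 CPM to 20.5, 22.3 and 24.2 CPM in vegetative buds. JAGGED (PRUPE_1G311900), which promotes growth of lateral organs in Arabidopsis, did likewise, with a log2 interaction of -1.49 (standard error 0.16, adjusted p = 1.07e-05). Of the 23 meristem genes that the study lists, 6 had a positive and 7 a negative interaction (56.5% called), with a median of 0.09. Without flower Pre0CU library 1, or with library totals alone, 4 positive ones were left.

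The MADS-box genes annotated in the module and the SVP genes fell more in flower buds than in vegetative buds. All 5 annotated members of the MADS-box list had a positive interaction, with a median of 1.02, as did both SVP genes that the study names. SVP1 (PRUPE_6G199000), named after a repressor of flowering in Arabidopsis, had 123, 118 and 119 CPM in vegetative buds at Pre0CU and 80.4, 87.6 and 89.8 CPM at Post770CU, against 117 and 119.7 CPM and then 25.8 and 26.8 CPM in flower buds. The flower libraries after chilling lay far under every other library. The change was called in flower buds alone (log2 -2.17 against -0.48), and the log2 interaction was 1.69 (standard error 0.07, adjusted p = 4.52e-09). SVP2 (PRUPE_8G069300) had 114, 107 and 118 CPM and then 158, 149.5 and 159 CPM in vegetative buds, a change below the fold needed for a call, and fell in flower buds from 114 and 105 CPM to 52.6 and 53.4 CPM. Its log2 interaction was 1.51 (standard error 0.07, adjusted p = 1.22e-08).

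MADS-box genes with neighbouring identifiers on the list shared the sign of the interaction. PRUPE_1G531700, whose best match in Arabidopsis is SVP, was at 619, 622 and 663 CPM before chilling in vegetative buds and at 472, 431 and 419.7 CPM after it. In flower buds it fell from 598 and 551 CPM to 131 and 129.6 CPM, a log2 change of -2.14 (standard error 0.06) and an interaction of 1.61 (standard error 0.08, adjusted p = 1.01e-08). Between the times, vegetative buds reached 1601, 1526 and 1447 CPM at 200CU and 1179.7, 1189 and 1384 CPM at 475CU, levels above those at Pre0CU and Post770CU. Its neighbour PRUPE_1G531600 was at 736, 722 and 764 CPM in vegetative buds at 200CU, against 180.2, 175 and 189.8 CPM at Pre0CU and 182, 183 and 178 CPM at Post770CU, which overlapped. Flower buds fell from 159 and 148 CPM to 70.4 and 69.8 CPM, and carried the interaction of 1.12 (standard error 0.07, adjusted p = 5.28e-08) alone. No flower bud library of the time between is analysed here. PRUPE_1G531400, with a log2 interaction of 0.70, also fell in flower buds alone, while PRUPE_1G531100, with 0.88, fell in both, by 2.31 log2 units in vegetative and 3.19 in flower buds. With 475CU in place of Post770CU for vegetative buds, all 5 genes of the MADS-box list were positive. That fit sets unlike times beside each other and uses the same fall in flower buds, so it is no independent evidence.

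Other flowering genes did not share one direction. AGL20A (PRUPE_2G151200), a match of the floral integrator SOC1, fell from 447 and 431 CPM to 155 and 164 CPM in flower buds, with 466, 448 and 472 CPM and then 344, 333 and 341 CPM in vegetative buds and an interaction of 1.02 (standard error 0.06, adjusted p = 3.67e-08). AGL20B (PRUPE_5G149400) was positive too at 1.25 (standard error 0.28, adjusted p = 0.00301), at levels below 6 CPM. SEP1 (PRUPE_1G290500), which with other MADS-box proteins specifies floral organs, rose in flower buds from 7.04 and 6.31 CPM to 11.7 and 11.7 CPM and was below 3 CPM in vegetative buds throughout. Its interaction was -1.21 (standard error 0.31, adjusted p = 0.007). AGL79 (PRUPE_3G249300), another MADS-box gene, was higher in flower buds at the start and fell in vegetative buds alone, from 12.6, 12.6 and 11.9 CPM to 6.53, 5.36 and 5.31 CPM. These 3 genes (AGL20B, SEP1 and AGL79) are among the 4 flower markers summed above. The B-box gene PRUPE_1G310900, listed as BBX14/BBX15, fell in flower buds alone with an interaction of 1.01 (standard error 0.26, adjusted p = 0.00736). FRIGIDAlikeB (PRUPE_6G334500), of a family named after the Arabidopsis vernalization gene FRIGIDA, changed more in flower buds. It had 1.77, 1.82 and 1.98 CPM in vegetative buds at Pre0CU and 3.03, 2.25 and 2.701 CPM at Post770CU, against 1.76 and 1.71 CPM and then 11.7 and 11.4 CPM in flower buds. It rose 1.43-fold in vegetative and 6.64-fold in flower buds, with an interaction of -2.21 (standard error 0.21, adjusted p = 3.66e-06).

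**Figure D4:**
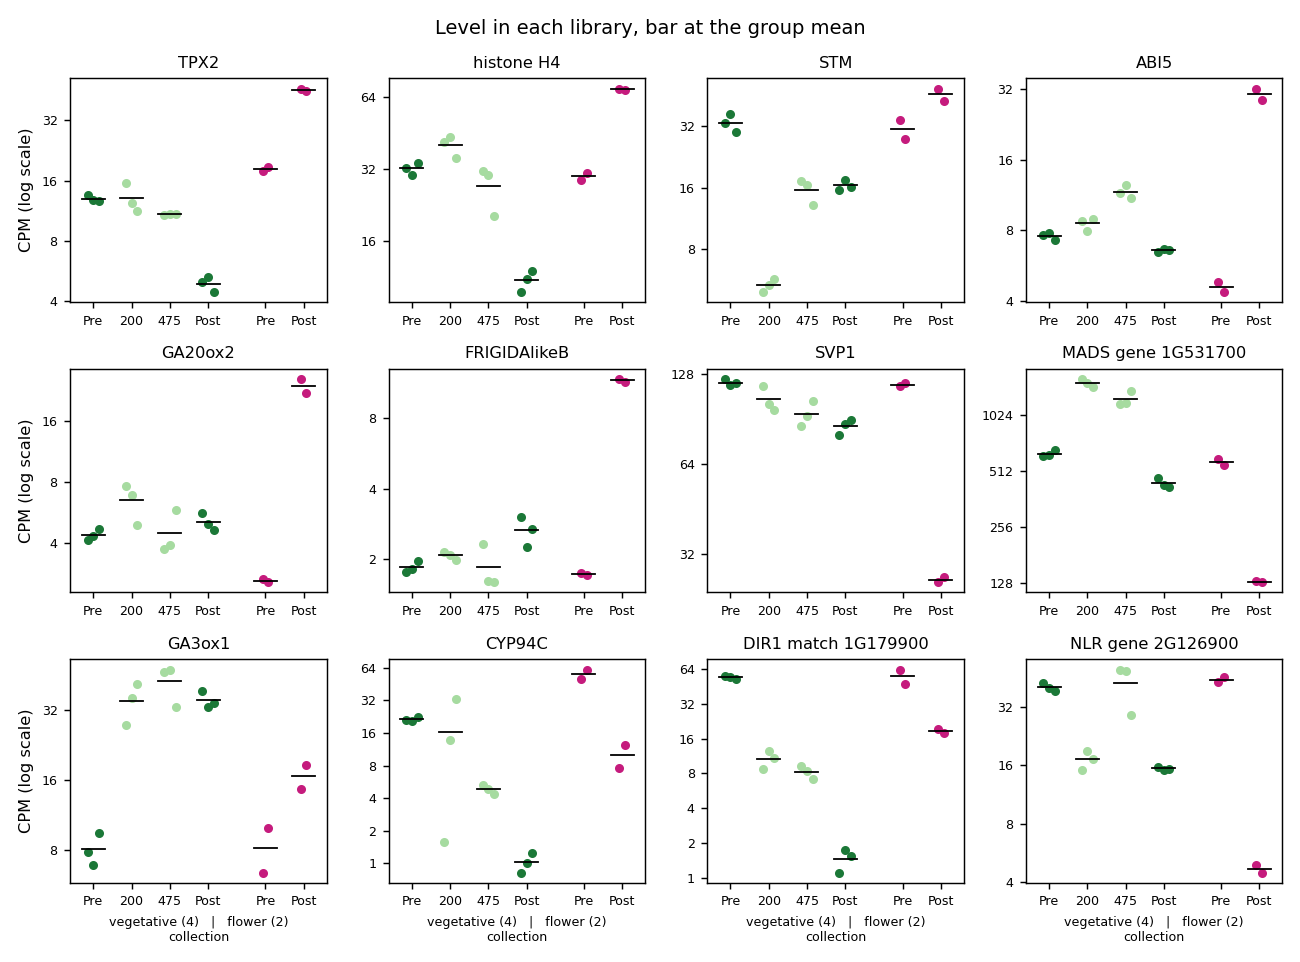
Level of 12 genes in each library (CPM, log axis), with vegetative buds at Pre0CU, 200CU, 475CU and Post770CU on the left of each panel and flower buds at Pre0CU and Post770CU on the right, and bars at the group means. TPX2 and histone H4 part after chilling in both directions, ABI5, GA20ox2 and FRIGIDAlikeB rise in flower buds, and SVP1 and the MADS-box and NLR genes fall there.

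Among GA genes, the largest interaction was that of a biosynthetic oxidase in flower buds. GA20ox2 (PRUPE_2G286800), which makes the precursors of active GA, had 4.13, 4.33 and 4.68 CPM in vegetative buds at Pre0CU and 5.67, 5.00 and 4.64 CPM at Post770CU, against 2.66 and 2.57 CPM and then 25.8 and 22.2 CPM in flower buds. All vegetative values lay within 2 CPM of each other, and the flower values rose 9.18-fold. The log2 interaction was -2.98 (standard error 0.17, adjusted p = 3.97e-08), carried by flower buds alone. GA3ox1 (PRUPE_1G467600), which makes active GA, went the other way. It rose in both bud types, 4.39-fold in vegetative and 2.03-fold in flower buds, with an interaction of 1.11 (standard error 0.24, adjusted p = 0.00228). Vegetative buds reached 39.0, 33.2 and 34.5 CPM from 7.86, 6.94 and 9.47 CPM, and flower buds 14.6 and 18.7 CPM from 6.41 and 9.99 CPM. At 200CU the gene already stood at 27.8, 36.0 and 41.7 CPM in vegetative buds. GA2ox6 (PRUPE_1G111900), which inactivates GA, fell in both and more in flower buds, to 17.9 and 25.1 CPM from 87.6 and 84.6 CPM, against 39.6, 40.8 and 41.6 CPM from 70.8, 75.8 and 74.4 CPM. Its interaction was 1.15 (standard error 0.14, adjusted p = 2.14e-05). Of 14 GA genes listed by the study, 3 were positive and 3 negative (42.9% called), with a median of -0.02. With library totals alone 5 were negative.

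ABA genes had interactions in both directions. Of 24 listed genes, 6 had a positive and 5 a negative interaction (45.8% called, against 24.6% of all genes tested), with a median of 0.15. ABI5 (PRUPE_7G112200), a bZIP factor at the end of ABA signaling, had 7.62, 7.81 and 7.30 CPM in vegetative buds at Pre0CU and 6.47, 6.69 and 6.62 CPM at Post770CU, against 4.84 and 4.39 CPM and then 32.1 and 28.8 CPM in flower buds. Flower buds began lower than vegetative buds and ended far above them, a 6.59-fold rise, with an interaction of -2.92 (standard error 0.13, adjusted p = 4.39e-09). AREB2/ABF4 (PRUPE_8G125800), a bZIP factor of the same group, rose in flower buds from 8.17 and 12.8 CPM to 21.6 and 23.3 CPM and fell in vegetative buds from 9.09, 8.79 and 8.98 CPM to 4.61, 4.27 and 4.14 CPM. The interaction was -2.15 (standard error 0.20, adjusted p = 3.09e-06), and vegetative buds were at 3.34, 4.30 and 5.70 CPM at 200CU. ABA receptors went in both directions. PYL2 (PRUPE_1G413500) fell in flower buds from 6.05 and 6.31 CPM to 2.58 and 3.09 CPM, with an interaction of 1.34 (standard error 0.20, adjusted p = 1.24e-04). PYL4 (PRUPE_6G284000) rose there from 4.38 and 5.71 CPM to 12.6 and 12.2 CPM, with an interaction of -1.03 (standard error 0.28, adjusted p = 0.0091), and vegetative buds had no called change in either. CYP707A2 (PRUPE_6G072400), which breaks ABA down, fell in flower buds from 10.7 and 12.0 CPM to 6.46 and 6.83 CPM and had a log2 change of 0.45 below the fold needed for a call in vegetative buds. Its interaction was 1.22 (standard error 0.20, adjusted p = 3.09e-04). Of the C2-domain genes of the CAR family, which bring receptors to membranes, CAR-likeA (PRUPE_1G329300) fell more in flower buds (log2 -2.91 against -1.59) and CAR-likeE (PRUPE_3G162700) fell in vegetative buds alone, with an interaction of -2.55 (standard error 0.32, adjusted p = 3.56e-05). EAR1 (PRUPE_6G145500), a repressor of ABA signaling in Arabidopsis, fell in both and more in vegetative buds.

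JA genes fell over winter in both bud types. Of 28 listed genes, 23 fell in vegetative and 22 in flower buds, with a median log2 change of -1.38 and -1.68. The interaction was negative for 9 and positive for 4 (46.4% called), with a median of -0.15. Of the 9 negative genes, 8 had their larger fall in vegetative buds. For a gene that falls in both bud types a negative value means just this, so it is no separate result. CYP94C (PRUPE_6G126400), listed under JA conjugation and known from Arabidopsis to oxidise the conjugated hormone, had 20.9, 20.6 and 22.5 CPM in vegetative buds at Pre0CU and 0.822, 1.01 and 1.26 CPM at Post770CU, against 50.4 and 61.5 CPM and then 7.53 and 12.3 CPM in flower buds. Both fell without overlap between the times. The fall was 4.33 log2 units in vegetative and 2.50 in flower buds, an interaction of -1.83 (standard error 0.27, adjusted p = 1.30e-04). The gene that the study lists as OPR3 and annotates as a lipoxygenase (PRUPE_3G039200) fell from 612, 625 and 639.6 CPM to 36.8, 36.5 and 35.6 CPM in vegetative buds and from 1448 and 1072 CPM to 179.9 and 311 CPM in flower buds. Its interaction was -1.75 (standard error 0.24, adjusted p = 7.10e-05). AOC4 (PRUPE_3G239900), an allene oxide cyclase of JA synthesis, gave -1.39 (standard error 0.29, adjusted p = 0.00175). The JAZ repressors JAZ10 (PRUPE_1G218500) and JAZ8 (PRUPE_4G082500) gave -1.19 and -1.12 (adjusted p = 0.00995 and 0.0124 in edgeR's test). Calls of both were lost with DESeq2 (adjusted p = 0.0542 and 0.0684), and that of JAZ8 also without flower Post770CU library 2 (adjusted p = 0.0571). The negative count over the list was then 6, both with DESeq2 and without that library.

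**Figure D5:**
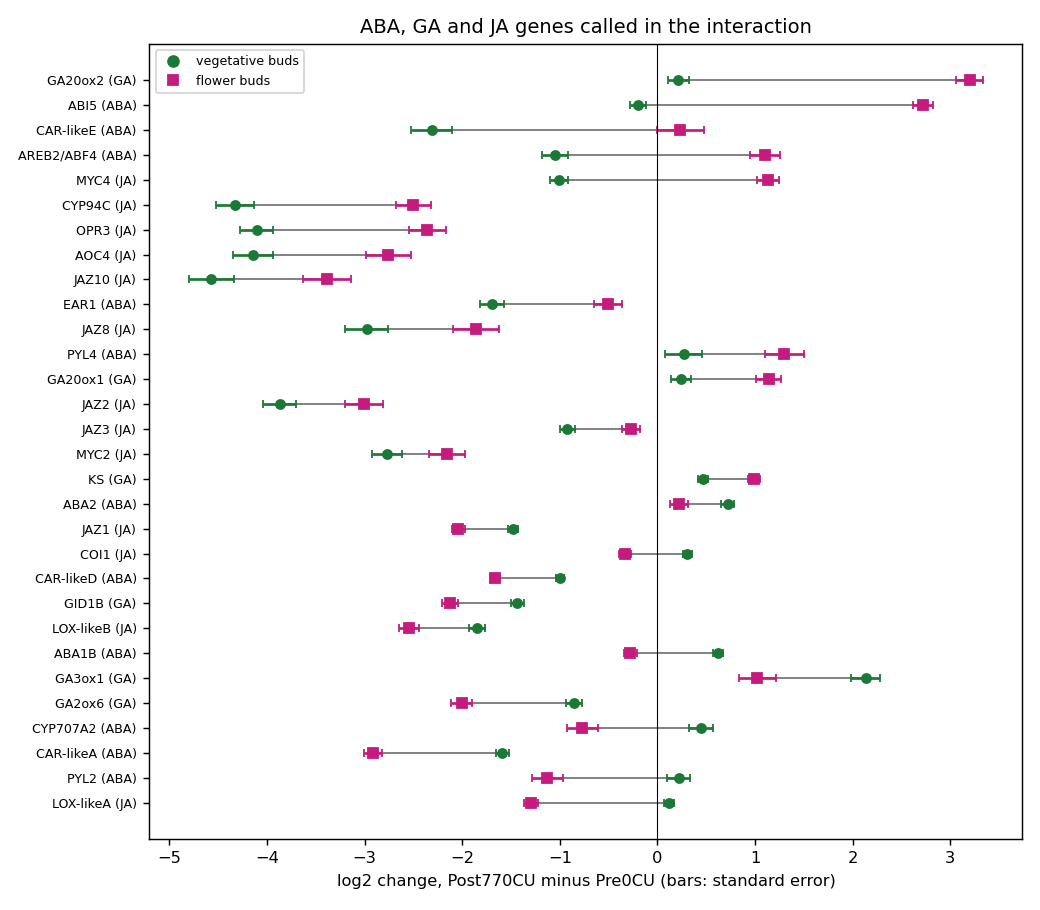
Log2 change from Pre0CU to Post770CU (x axis, with standard error) of the 30 ABA, GA and JA genes with a called interaction, in vegetative buds (circles) and flower buds (squares), ordered by the interaction. GA20ox2 and ABI5 at the top rose in flower buds alone, and most JA genes fell in both bud types.

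With vegetative 475CU in place of Post770CU, 2 JA genes were negative and 12 positive, and the interaction was 1.91 for AOC4, 0.37 for CYP94C, 1.32 for JAZ10 and -0.13 for the gene listed as OPR3, none of them called. For these 4 genes the larger fall in vegetative buds was thus not called by 475CU, and the RNA label changes after it. The part of the label was not tested. Libraries also differed within a group. CYP94C had 1.57, 13.9 and 33.1 CPM in the 3 libraries of 200CU, and at 475CU AOC4 had 374, 341 and 42.6 CPM and JAZ10 45.8, 44.7 and 12.5 CPM. For AOC4 and JAZ10 the libraries with the higher levels were the 2 with high LFY, so their values at 475CU rest on those libraries. MYC4 (PRUPE_5G130500), a transcription factor that JAZ proteins repress, differed from the rest of the JA list. It fell in vegetative buds from 14.6, 15.0 and 12.9 CPM to 6.64, 7.80 and 6.69 CPM, was at 6.02, 6.28 and 5.36 CPM there at 475CU, and rose in flower buds from 8.57 and 7.88 CPM to 17.8 and 18.3 CPM. The interaction was -2.14 (standard error 0.14, adjusted p = 1.33e-07). LOX-likeA (PRUPE_6G324100), a lipoxygenase gene, was level in vegetative buds and fell in flower buds from 45.0 and 43.6 CPM to 17.3 and 18.9 CPM, with an interaction of 1.42 (standard error 0.09, adjusted p = 6.30e-08).

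Outside the hormone and meristem lists, several of the largest negative interactions were those of genes that fell further in vegetative buds. A gene matching DIR1 (PRUPE_1G179900), a lipid transfer protein of systemic resistance in Arabidopsis, had 55.3, 55.0 and 52.9 CPM in vegetative buds at Pre0CU and 1.10, 1.74 and 1.52 CPM at Post770CU, against 63.3 and 47.6 CPM and then 19.2 and 17.9 CPM in flower buds. It fell in both bud types, and the vegetative libraries ended below 2 CPM. The interaction was -3.63 (standard error 0.18, adjusted p = 1.40e-08). At 200CU vegetative buds were already at 8.63, 12.4 and 10.8 CPM. A U-box E3 ubiquitin ligase gene (PRUPE_3G164200) fell 4.99 log2 units in vegetative and 1.90 in flower buds, with an interaction of -3.09 (standard error 0.32, adjusted p = 6.16e-06). A DREB factor matching CBF4 (PRUPE_2G289500), of a family that switches on cold and drought genes, gave -2.34 (standard error 0.51, adjusted p = 0.00256), though its flower libraries were far apart at both times (80.5 and 46.9 CPM, then 8.12 and 22.6 CPM). A BURP-domain gene matching RD22 (PRUPE_1G476200), a dehydration marker of Arabidopsis, fell from 64.8, 69.6 and 67.5 CPM to 11.9, 14.2 and 14.2 CPM in vegetative buds and rose from 229.5 and 317 CPM to 399 and 389 CPM in flower buds, an interaction of -2.85 (standard error 0.15, adjusted p = 2.30e-08). Opposite changes were also those of a C2H2 zinc finger gene (PRUPE_1G503600, log2 interaction -2.94) and of PRUPE_3G077300, whose Arabidopsis match is an unknown protein (log2 interaction -3.00). TCX2 (PRUPE_1G019100), which in Arabidopsis regulates stem cell division, fell from 126, 123 and 124 CPM to 20.0, 21.2 and 21.8 CPM in vegetative buds and was at 87.8 and 87.5 CPM and then 74.95 and 73.2 CPM in flower buds. Vegetative buds alone carried its interaction of -2.32 (standard error 0.07, adjusted p = 3.86e-10). In the other direction, a P-type cyclin gene (PRUPE_2G121600) rose from 11.6, 11.2 and 11.2 CPM to 22.3, 25.1 and 22.5 CPM in vegetative buds and was level in flower buds, at 16.8 and 16.6 CPM and then 16.9 and 16.6 CPM.

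Many genes of defence and stress fell in both bud types, and most called interactions on the defence and ethylene lists were positive. Of 72 genes on the defence list, 55 fell in vegetative and 62 in flower buds. Falls were common in the whole module too, with 1164 of 1561 genes in vegetative and 1047 in flower buds. On the defence list 23 genes had a positive and 4 a negative interaction, with a median of 0.37. The share of 37.5% with a call lies below the 45.0% of the module these annotations come from, and the negative calls were not stable. None was left without flower Post770CU library 2, and 2 were left without vegetative Pre0CU library 1 or 2 or vegetative Post770CU library 3. An NLR immune receptor gene (PRUPE_2G126900) had 42.6, 39.9 and 38.7 CPM in vegetative buds at Pre0CU and 15.6, 15.2 and 15.4 CPM at Post770CU, against 43.0 and 45.5 CPM and then 4.90 and 4.46 CPM in flower buds. Every flower library after chilling lay below every other library, with an interaction of 1.84 (standard error 0.10, adjusted p = 1.66e-08). A leucine-rich repeat receptor kinase gene (PRUPE_3G055800) fell 4.00 log2 units in flower and 2.12 in vegetative buds, with an interaction of 1.88 (standard error 0.15, adjusted p = 6.15e-07). A disease resistance gene listed as RUN1 (PRUPE_3G130900) gave 1.34 (standard error 0.10, adjusted p = 2.60e-07). An HSP70 chaperone gene (PRUPE_2G233500) fell from 2082 and 1967 CPM to 95.6 and 90.6 CPM in flower buds and from 1614, 1541 and 1507 CPM to 199, 192 and 193 CPM in vegetative buds. Its interaction was 1.45 (standard error 0.06, adjusted p = 3.78e-09). On the ethylene list 5 of 8 genes were positive and none negative, with a median of 0.81. They were the factor matching ERF1 (PRUPE_2G272300, log2 interaction 1.48) and 4 genes annotated as homologs of ACC oxidase, the last enzyme of ethylene synthesis. The annotation as a homolog does not show that these 4 genes make ethylene. They have close identifiers and like annotations, so reads may be shared between them. C4H (PRUPE_1G064900), of the phenylpropanoid pathway toward lignin and flavonoids, fell in flower buds alone, from 70.1 and 66.1 CPM to 18.9 and 15.3 CPM. It had 64.0, 59.5 and 57.5 CPM and then 51.8, 51.4 and 52.7 CPM in vegetative buds. The interaction was 1.77 (standard error 0.11, adjusted p = 5.83e-08).

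Of 11 genes of flavonoid synthesis 1 was negative, and of 6 photosystem and light harvesting genes 1 was positive and 1 negative. The summed level of these 6 fell from 420.3 to 429 CPM to 249 to 294 CPM in vegetative and from 454 to 499 CPM to 222 to 239 CPM in flower buds. The starch and sugar list had 1 positive and 4 negative of 9 (55.6% called, beside 45.0% of the module). The auxin list had 1 and 3 of 8 (50%), and dehydrins and LEA proteins 2 and 1 of 6 (50%). Heat shock proteins had 2 and 0 of 4 (50%), and cytokinin 0 and 1 of 4 (25%). The most negative starch and sugar call (PRUPE_1G330900, log2 interaction -1.74) is annotated as a pectin methylesterase inhibitor. Of the dehydrin and LEA calls, PRUPE_2G319000 and PRUPE_3G049400 are annotated as NDR1/HIN1-like proteins. The light and clock list, whose hits are mostly not clock genes, had 2 and 2 of 6. The other keyword lists of 2 genes (core histones, D-type cyclins and kinase inhibitors, DREB factors, anther and pollen, chromatin, leaf polarity) had at most 1 call per direction. Both members of the cyclin list are annotated as inhibitors of cyclin-dependent kinases, so it holds no cyclin. The anther list includes an ATP synthase subunit, and the leaf polarity list a regulator of plastid nucleoids. For 2 lists, ribosomal proteins and callose, there was no annotated member. The 7 network targets named by the study, SEP1 among them, had 3 negative calls. Of 16 cell wall genes 3 were positive and 5 negative. The XTH gene with the largest value (PRUPE_3G171800), of a family that remodels xyloglucan, has close neighbours of the same annotation with which reads may be shared. Its flower libraries were at 88.9 and 31.8 CPM and then 19.5 and 70.9 CPM, and its interaction of -1.96 (standard error 0.69, adjusted p = 0.0372) became -0.75 (adjusted p = 0.327) without flower Post770CU library 2.

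Larger differences belonged to genes without a name. PRUPE_5G008200 was at 11.8, 11.6 and 9.86 CPM and then 2.509, 3.87 and 3.01 CPM in vegetative buds, and rose from 7.10 and 6.93 CPM to 188 and 172 CPM in flower buds, an interaction of -6.50 (standard error 0.17, adjusted p = 3.86e-10). PRUPE_7G239200 rose in vegetative buds from 10.2, 11.0 and 14.0 CPM to 266, 411 and 414 CPM and in flower buds from 56.3 and 49.0 CPM to 187 and 139 CPM, an interaction of 3.32 (standard error 0.27, adjusted p = 7.03e-07). PRUPE_7G050900 rose in vegetative buds alone, with 91.5, 238 and 231 CPM after 34.5, 32.8 and 30.8 CPM, an interaction of 3.01 (standard error 0.42, adjusted p = 7.83e-05). These 3 were chosen after their values were seen.

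At the settings used, how many simulated differences were called depended on their size. In simulated counts with a change in flower buds alone, 31 of 67 genes changed 1.5-fold were called, 45 of 67 changed 2-fold and 57 of 66 changed 4-fold, with 9 false calls among 26758 genes. Far fewer genes were changed there than were called in these data, which makes the adjustment stricter, and a fold above 1.4 was also required. The number of libraries was not varied, so these shares do not measure what 2 flower libraries per time can show. Genes without a call may still differ between the bud types.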

How the data were processed

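RNA of peach buds was sequenced by the authors, who used fastp for trimming, STAR for mapping to the peach genome (NCBI v2) and bedtools for counting on exons (version 2.30.1 in the submitters' processing notes), after duplicated reads had been discarded. Each deposited value is a raw count of reads on a gene, without normalization, and how reads matching several genes were counted is not given in the sources used here. The columns carry collection names and their own numbers, so they were tied to groups and not to single samples. The 10 libraries of Pre0CU and Post770CU of both bud types were fitted in a single model with a mean per group with edgeR 4.0.16 in R 4.3.3 (filterByExpr with a minimum count of 10 and total of 15, TMM, quasi-likelihood test, Benjamini-Hochberg adjustment over all genes tested). Library totals were 44894673 to 71239880 counts. Genes were named by a rule: the 8 largest interactions per direction with a name, a mean log2 CPM of 3 or more and libraries of the 2 times apart, the 3 largest per driver class and direction, genes of the study's lists with a log2 interaction of at least 1, and up to 3 per keyword list. Keyword lists were applied to the annotation of the study, which covers 1 module of vegetative buds and was held here only in part, since no other annotation matched the identifiers. Members and lists were chosen with earlier results of these data known. CPM of 200CU and 475CU libraries were scaled to the same reference library. Alternatives were run with DESeq2 1.42.0 and limma 3.58.1, among others, and 1 was added after seeing the data. The year A table was not used. Per the study's methods, buds of 3 or 4 trees formed the biological replicates, without saying which trees went into which library, and p-values measure the spread between libraries. Figures were drawn with matplotlib 3.10.9, and the test was checked on simulated data. Standard errors come from the same quasi-likelihood fit and include the spread between libraries, while the floor of 3 counts covers counting error only.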

Additional observations from a re-analysis of the deposited data

Results flagged for a closer look

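A change over winter that differed between the bud types by the interaction test was found for 6594 genes. The named genes below are those described above, with the log2 interaction (vegetative change minus flower change) of each. No gene was searched for single outlying samples, since the groups hold 2 or 3 libraries.

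Among genes of division and chromatin, the values were -2.77 for PRUPE_2G232000, -1.48 for PRUPE_2G185400, -2.73 for PRUPE_3G140300, -2.41 for PRUPE_1G235600, -2.40 for PRUPE_1G042100, -1.29 for PRUPE_1G223400, -0.91 for PRUPE_1G233700, -0.87 for PRUPE_2G301900, -2.32 for PRUPE_1G019100 and 1.04 for PRUPE_2G121600. Among regulators of meristems and organs they were -1.43 for PRUPE_2G140400, -1.49 for PRUPE_1G311900, -1.58 for STM, -1.51 for WOX13 and -1.43 for WOX. Among MADS-box and flowering genes they were 1.69 for SVP1, 1.51 for SVP2, 1.61 for PRUPE_1G531700, 1.12 for PRUPE_1G531600, 1.02 for AGL20A, 1.25 for AGL20B, -1.21 for SEP1, -1.37 for AGL79, -2.21 for FRIGIDAlikeB and 1.01 for the B-box gene PRUPE_1G310900. 

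The GA genes had -2.98 for GA20ox2, 1.11 for GA3ox1 and 1.15 for GA2ox6. The ABA genes had -2.92 for ABI5, -2.15 for AREB2/ABF4, 1.34 for PYL2, -1.03 for PYL4, 1.22 for CYP707A2, 1.32 for CAR-likeA, -2.55 for CAR-likeE and -1.18 for EAR1. The JA genes had -1.75 for the gene listed as OPR3, -1.39 for AOC4, -1.83 for CYP94C, -1.19 for JAZ10, -1.12 for JAZ8, -2.14 for MYC4 and 1.42 for LOX-likeA. Genes of stress, defence and cell wall had -2.34 for PRUPE_2G289500, -3.63 for PRUPE_1G179900, -3.09 for PRUPE_3G164200, -2.85 for PRUPE_1G476200, -1.96 for PRUPE_3G171800, 1.45 for PRUPE_2G233500, 1.48 for PRUPE_2G272300, 1.84 for PRUPE_2G126900, 1.88 for PRUPE_3G055800, 1.34 for PRUPE_3G130900 and 1.77 for PRUPE_1G064900. The rest were -2.94 for the zinc finger gene PRUPE_1G503600, -3.00 for PRUPE_3G077300, -6.50 for PRUPE_5G008200, 3.32 for PRUPE_7G239200 and 3.01 for PRUPE_7G050900.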

How the results depend on the processing

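Counts over all genes stayed within 1.5 times under another scaling, filter or test and under the block, and moved with the thresholds. Among the lists followed, the negative GA genes were 5 with library totals alone, against 3. At an FDR of 0.01 and 1.5-fold, 2025 genes had a positive interaction, 1249 differed between bud types at Pre0CU, 275 changed in opposite directions, and 349 and 891 changed in the same direction with the larger change in vegetative and in flower buds. At 2-fold, 2649 genes were called, 969 positive and 1680 negative, while 1160 rose and 3142 fell in vegetative buds, 2375 rose and 3545 fell in flower buds, and 475 and 2832 genes differed between bud types at Pre0CU and Post770CU. The classes then held 511 genes of vegetative buds only, 1108 of flower buds only, 77 with opposite changes, and 182 and 252 with the larger change in vegetative and in flower buds, so 693 were carried by vegetative and 1360 by flower buds. By size of the change alone these were 2187 and 4407, against 1775 and 3825. With library totals alone 6846 genes were called.

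Leaving out a library gave 6137 to 6448 calls, 2821 to 3024 positive and 3275 to 3476 negative, with 1085 to 1168 genes of vegetative buds only, 2177 to 2335 of flower buds only, 406 to 442 with opposite changes, 518 to 591 and 1315 to 1497 with the larger change in vegetative and in flower buds, and 496 to 550 with neither. Vegetative buds carried 1603 to 1743 and flower buds 3492 to 3759. Risers and fallers were 4194 to 4306 and 5690 to 5915 in vegetative buds and 5624 to 5942 and 5697 to 6069 in flower buds, and 1801 to 2194 and 7103 to 7607 genes differed between bud types at Pre0CU and Post770CU. A flower group is then left with 1 library, which is assumed to vary like the others. The mitosis list had 14 to 15 negative calls in these fits.

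The replicate block gave 6414 calls, 6330 of them shared. Columns share only a number: deviations of equally numbered libraries correlated at 0.00 to 0.01 in vegetative buds and -0.02 in flower buds, and not every library correlated best with its own number. Of 102 named genes called, 92 kept their call under 17 alternatives, and none reversed. With vegetative 475CU in place of Post770CU, 7794 genes were called. They included 4669 of the main calls (70.8%), and 3353 genes kept their driver class. The defence list then had 51 positive and 0 negative calls, against 23 and 4, and the ABA list 10 and 5, against 6 and 5. Of the 102 named genes 78 kept their call, 16 lost it and 8 turned without a call, at 1.32 for PRUPE_1G218500, 1.91 for PRUPE_3G239900, 0.37 for PRUPE_6G126400, 0.32 for PRUPE_1G095900, 0.19 for PRUPE_2G184900, 0.36 for PRUPE_2G277800, 0.023 for PRUPE_3G093100 and 0.41 for PRUPE_3G172000. This fit sets vegetative buds at 475CU against the same flower change to Post770CU, so the times differ and the flower libraries are shared. It also includes the 475CU libraries with high LFY. The cause was not tested. In simulated counts, where far fewer genes changed than were called here, 46.3% of 1.5-fold changes were called. The number of libraries was not varied there, so the part of having 2 flower libraries per time was not tested.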

Other observations

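A group of 4 genes with consecutive identifiers, beginning at PRUPE_I004600, was found almost only in flower buds after chilling. PRUPE_I004600 had 5240 and 3202 counts in the flower libraries of Post770CU, at 81.0 and 59.2 CPM, and no count in any library of Pre0CU. Among vegetative libraries of Post770CU it had 2 counts in 1 library and none in the others. Against a floor of 3 counts per library its level in flower buds was at least 1061-fold higher at Post770CU than at Pre0CU. The other 3 genes had 1310 and 866, 223 and 135, and 3862 and 2416 counts in the same 2 libraries, and none in the other 8. edgeR's test gave an adjusted p of 1 for the interaction of all 4, so they are not among the calls. The other tests called PRUPE_I004600, with an adjusted p of 5.43e-08 in DESeq2 and 6.71e-08 in limma, and an adjusted p of 1 was given by the edgeR alternatives. With groups at 0, the fitted log2 value is no measure of size. They carry no annotation in the sources used here.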
